A study of Mus musculus with 16 samples.

Results

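The cyclin-dependent kinase (CDK) inhibitors and the retinoblastoma family are 10 genes of the 49568 gene symbols in the count table of mouse flexor tendon, chosen by symbol and not by their values. They comprise the CIP/KIP inhibitors Cdkn1a (p21), Cdkn1b (p27) and Cdkn1c (p57), the INK4 inhibitors Cdkn2a (p16Ink4a and p19Arf), Cdkn2b (p15), Cdkn2c (p18) and Cdkn2d (p19Ink4d), and the pocket protein genes Rb1, Rbl1 (p107) and Rbl2 (p130). In MRL tendon at 7 days post-injury (dpi), Cdkn1c, Cdkn1b and Rbl2 were lower than in uninjured MRL tendon, by 2.99-fold, 2.19-fold and 2.23-fold, and only the Cdkn1c difference still passed the test without a library whose strain label its reads contradict, although it was lost in 3 of 8 fits that each left out 1 library. No member passed the test in C57 tendon, where 1.07% of all genes tested did, against 7.41% in MRL tendon. No gene passed the corresponding test of a difference between the strains' injury responses, so these calls do not show that the strains differ. Cdkn1c was also 3.43-fold lower in injured MRL than in injured C57 tendon, a call lost in 7 of 8 fits that each left out 1 library. Endothelial markers were lower in the same libraries, and their part in this difference was not tested.

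RNA-seq was performed on single flexor tendons of male mice aged 9 to 11 weeks, with 4 libraries in each of 4 groups: uninjured C57BL/6J (C57) tendon, C57 tendon at 7 dpi, uninjured MRL/MpJ (MRL) tendon and MRL tendon at 7 dpi. C57 is a common inbred laboratory strain, and MRL is an inbred strain studied because several of its tissues heal with little scarring. The injury was a cut across about 50% of the width of a deep digital flexor tendon in a hind paw digit, the third, and the study asked how the response to it differs between the strains. Sheath and other tissue around the tendon was left on, so each value is a mean over tendon cells and over whatever other cells came with them. Uninjured libraries are named by their replicate number, and injured libraries by their titles, BI-181 and BI-183 with BI-184 and BI-185 in C57, and BI-270 and BI-272 with BI-274 and BI-275 in MRL. Total counts ranged from 12552424 to 23741648, and injured MRL libraries were the deepest group, at 18524170 to 23741648.

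CDK inhibitors hold cells in the G1 phase. INK4 proteins bind CDK4 and CDK6 and keep them from pairing with D-type cyclins, whereas CIP/KIP proteins bind cyclin and CDK complexes, those of CDK2 in particular. The pocket proteins bind E2F transcription factors and repress the genes needed for DNA synthesis until CDKs phosphorylate them. Rbl2 is the pocket protein known from resting cells, where it joins E2F4 and the MuvB core in the DREAM complex, whereas Rbl1 is itself an E2F target and is known from cycling cells. Much of the control over p27 and p21 is exerted on the protein, through ubiquitin ligases, and is out of reach of RNA counts.

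The start regions of 4 members are shown: Rbl2 and Cdkn1b, which were called lower in injured MRL tendon, Cdkn2d, which passed there by the adjusted p alone, and Rbl1, a known E2F target, which was not called. Each runs 5′ to 3′ on the strand of its gene from 250 bases before to 50 bases after a RefSeq start, on build GRCm38.p6, and capitals mark a match to an E2F site (TTTCGCGC, TTTGGCGC, TTTCCCGC or TTTGCCGC) or to the cell cycle homology region (CHR, TTTGAA), searched on both strands.
Rbl1 (chr2:157204485-157204784, minus strand): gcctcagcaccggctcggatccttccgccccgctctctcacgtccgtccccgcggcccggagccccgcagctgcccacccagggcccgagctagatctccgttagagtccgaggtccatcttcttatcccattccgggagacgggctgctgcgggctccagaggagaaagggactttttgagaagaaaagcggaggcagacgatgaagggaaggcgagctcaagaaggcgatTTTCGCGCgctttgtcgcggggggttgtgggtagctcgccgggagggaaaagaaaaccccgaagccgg
Rbl2 (chr8:91069807-91070106, plus strand): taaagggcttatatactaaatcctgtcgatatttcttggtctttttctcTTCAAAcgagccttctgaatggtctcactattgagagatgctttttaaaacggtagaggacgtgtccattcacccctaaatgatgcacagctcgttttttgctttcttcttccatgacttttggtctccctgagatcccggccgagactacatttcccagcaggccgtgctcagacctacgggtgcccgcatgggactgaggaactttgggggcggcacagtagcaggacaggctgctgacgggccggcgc
Cdkn1b (chr6:134920151-134920450, plus strand): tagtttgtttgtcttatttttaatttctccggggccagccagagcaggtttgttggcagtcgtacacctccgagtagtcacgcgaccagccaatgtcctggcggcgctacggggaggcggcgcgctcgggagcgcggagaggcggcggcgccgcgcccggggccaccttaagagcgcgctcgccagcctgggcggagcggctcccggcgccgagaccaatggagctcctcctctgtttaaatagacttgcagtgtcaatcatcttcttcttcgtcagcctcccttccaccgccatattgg
Cdkn2d (chr9:21291160-21291459, minus strand): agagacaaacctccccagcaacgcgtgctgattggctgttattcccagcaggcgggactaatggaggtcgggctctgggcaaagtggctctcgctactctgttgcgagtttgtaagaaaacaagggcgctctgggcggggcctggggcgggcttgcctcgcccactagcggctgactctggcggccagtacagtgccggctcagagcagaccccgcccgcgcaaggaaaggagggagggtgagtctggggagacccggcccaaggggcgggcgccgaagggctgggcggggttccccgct

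The Rbl1 window held TTTCGCGC from 18 bases before the start, and the Rbl2 window held a CHR, as TTCAAA, from 201 bases before it. These matches did not overlap another motif searched. Neither motif was matched in the windows of Cdkn1b and Cdkn2d. Over the whole table of 32851 windows, 2.26% held any of the 4 E2F sequences, 0.323% held TTTCGCGC and 17.9% held a CHR, and the FoxO sequence GTAAACA, in 3.65% of all windows, was in none of the 11 windows of the 8 members that the table lists. Of the others, the first of the Cdkn2a windows held TTTCCCGC and the Cdkn2b window a CHR. A match describes the letters and is no evidence of a bound factor. Cdkn1c and Rb1 have no entry in the table.

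The 10 genes were placed on GRCm38 with GENCODE release M21. The INK4 genes Cdkn2a (chr4:89274471-89294653) and Cdkn2b (chr4:89306299-89311039) are neighbours on the minus strand of chromosome 4, which also carries Cdkn2c (chr4:109660876-109667189). Cdkn2d lies at chr9:21288410-21291407, Cdkn1a at chr17:29090976-29100727, Cdkn1b at chr6:134920401-134925513 and Cdkn1c at chr7:143458339-143461050. Rb1 (chr14:73183673-73325822), Rbl1 (chr2:157145893-157204534) and Rbl2 (chr8:91070057-91123844) are the longest. Because the strand setting of the counting is not given in the sources used here, overlaps limit some counts. Aktip and Gm45464 lie on the opposite strand and share 693 and 892 of the 7558 exon bases of Rbl2, with up to 2945 and 27 counts in a library, Rcbtb2 and Lpar6 share 488 and 408 of the 6015 exon bases of Rb1, and Gm44732, antisense to Cdkn1c, shares 625 of its 2039 exon bases and had no count in any library.

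Of the 8 uninjured libraries, 2 went against their strain label. Genes counted in the injured libraries of 1 strain only were used as a check, 11 for C57 and 31 for MRL, with at most 2 counts in each injured library of one strain and at least 30 in each of the other. The library labelled C57 uninjured replicate 4 had 10 counts or more of 30 of the 31 MRL genes and of 1 of the 11 C57 genes, and the library labelled MRL uninjured replicate 4 had them of 0 and of 11. In the other 6 uninjured libraries, at least 30 of the MRL genes and at most 2 of the C57 genes had 10 counts or more under an MRL label, and 0 and at least 10 under a C57 label. The injured libraries chose the genes and so cannot be checked in this way. No library was moved to another group, and the edgeR results of members that use these uninjured libraries are given with and without them. Other tissue was also present: 12 epidermal markers took 6.85% of the counts of the library labelled C57 uninjured replicate 4 against at most 0.0604% elsewhere, and 12 skeletal muscle markers took 7.72% of those of BI-181 and 0.242% of those of BI-183 against at most 0.00176% elsewhere. All 6 tendon markers had counts in every library, at a summed level of 7989 to 36796 CPM (the counts-per-million scale, on TMM-adjusted library sizes).

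The 6 leukocyte markers summed to 3714 to 6781 CPM in injured C57 and 3184 to 5737 CPM in injured MRL libraries, against 588 to 1147 CPM and 731 to 1229 CPM in the uninjured libraries. Most of the injured sums was Lyz2, at 3165 to 5748 CPM in C57 and 2885 to 5257 CPM in MRL. For 6 proliferation markers, such as Mki67 and Top2a, the sums were 39.8 to 238 CPM in injured C57, 131 to 366 CPM in injured MRL and 1.85 to 8.59 CPM in uninjured MRL libraries. In uninjured C57 they were 5.58 to 8.07 CPM in 3 libraries and 183 CPM in the library labelled C57 uninjured replicate 4. In bulk tissue, fewer cells of a type and less RNA per cell cannot be told apart, and the part of these differences in the values below was not tested.

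**Figure D1:**
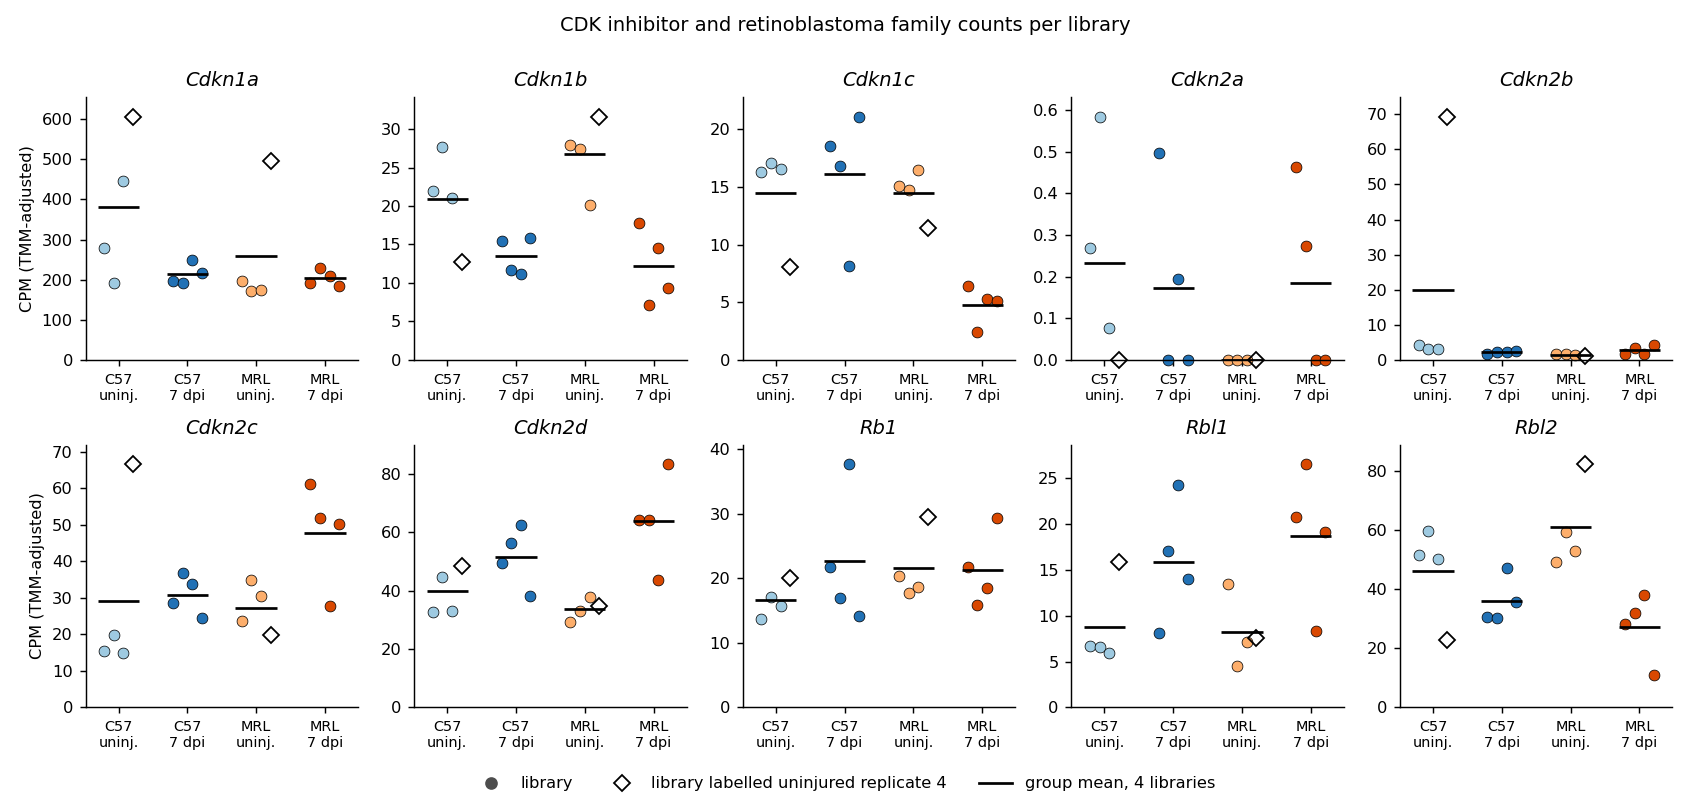
CPM of the 10 genes (vertical axes, each from 0 and on its own scale) in the 16 libraries by group. Points are libraries, open diamonds the libraries labelled uninjured replicate 4, and lines the mean of all 4 libraries; all 4 injured MRL libraries had less Cdkn1c than any other library, and the diamond in uninjured C57 stood far above its group for Cdkn2b and Cdkn2c.

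Compared between genes as RPKM, which is CPM divided by the exon length in kilobases, Cdkn1a had the highest mean level of the 10 in every group and Cdkn2d the next. In injured MRL tendon, Cdkn1a was at 57.2 ± 5.51 RPKM (SD, n = 4), Cdkn2d at 40.6 ± 10.3 and Cdkn2c at 17.8 ± 5.28. Below them came Rbl2 at 3.61 ± 1.53, Rb1 at 3.55 ± 0.978, Rbl1 at 3.11 ± 1.27, Cdkn1b at 2.67 ± 1.07, Cdkn1c at 2.35 ± 0.830, Cdkn2b at 1.97 ± 0.931 and Cdkn2a at 0.157 ± 0.193 RPKM. The ranges of each neighbouring pair from Rbl2 down to Cdkn2b overlapped, whereas those of Cdkn2d (27.7 to 52.9 RPKM) and Cdkn2c (10.3 to 22.8 RPKM) did not. The range of Cdkn1a, 52.0 to 64.3 RPKM, overlapped that of Cdkn2d. In uninjured MRL tendon the mean levels of Rbl2, at 8.07 ± 1.96 RPKM, and of Cdkn1c, at 7.08 ± 1.05 RPKM, followed that of Cdkn2c, at 10.1 ± 2.52 RPKM, and the ranges of these 3 genes overlapped. Without the library labelled replicate 4, Cdkn1c was at 7.58 ± 0.453 and Rbl2 at 7.13 ± 0.683 RPKM (n = 3), in the opposite order.

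In injured C57 tendon the mean was 60.1 ± 7.42 RPKM (SD, n = 4) for Cdkn1a, 32.7 ± 6.63 for Cdkn2d, 11.5 ± 2.07 for Cdkn2c and 7.93 ± 2.77 for Cdkn1c. The same values in uninjured C57 tendon were 107 ± 51.7, 25.2 ± 5.06, 10.9 ± 9.33 and 7.12 ± 2.11 RPKM. There Cdkn2b took the third place, at 14.3 ± 23.7 RPKM, through the library labelled replicate 4, and without that library it was at 2.51 ± 0.430 RPKM (n = 3). Cdkn2c was then at 6.24 ± 1.04 RPKM, below Cdkn1c at 8.18 ± 0.199 and Rbl2 at 7.12 ± 0.682 RPKM.

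Of the 10 members, 9 passed the filter on low counts in every comparison, and Cdkn2a did not. A gene was called where edgeR's quasi-likelihood test over all genes gave an adjusted p below 0.05 and the log2 fold change was beyond 1 in either direction. In MRL tendon, 3 of the 9 tested members were called after injury, all lower, against 7.41% of the 14274 genes tested. Without the library labelled MRL uninjured replicate 4, 1 member was called, against 6.11% of genes. The injured and uninjured MRL libraries did not overlap in CPM for 4 members, 3 lower (Cdkn1b, Cdkn1c and Rbl2) and 1 higher (Cdkn2d), against 22.9% of genes, and the same held without that library, against 29.3%. In C57 tendon edgeR called 0 of 9 members, against 1.07% of genes, and 3 had an unadjusted p under 0.05, as had 2204 of the 14424 genes. Without the library labelled C57 uninjured replicate 4 it again called 0, against 5.01% of genes, and 4 had an unadjusted p under 0.05, as had 3149 of 14983 genes. In MRL tendon 6 members had an unadjusted p under 0.05 in either fit, as had 4046 of 14274 genes with all libraries and 3766 of 14868 without replicate 4. DESeq2 called 4 members in MRL, the 3 above and Rbl1, against 11% of the 16477 genes it gave an adjusted p, and 0 in C57, against 5.35% of 16962.

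**Figure D2:**
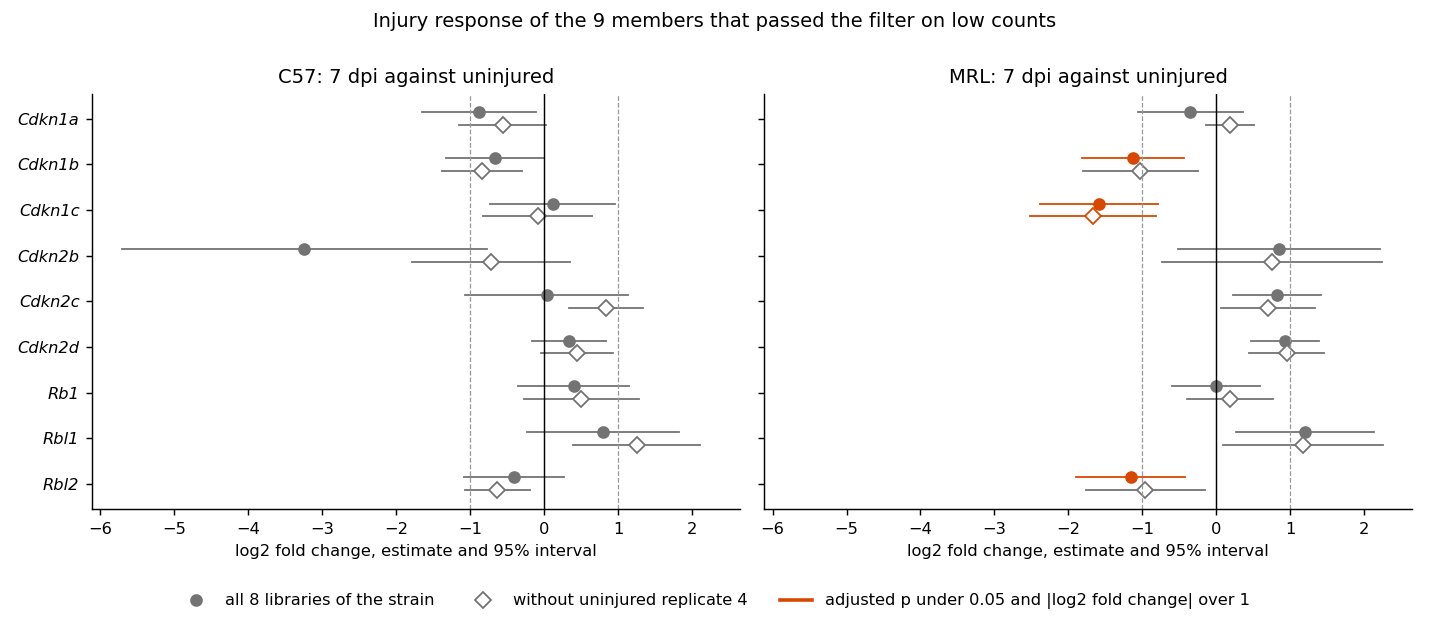
Log2 fold change from uninjured to 7 dpi (horizontal axis) of the 9 members tested, with its 95% interval, in C57 (left) and MRL tendon (right). Circles use all 8 libraries of the strain and diamonds leave out its uninjured replicate 4; orange marks the calls, which are Cdkn1b, Cdkn1c and Rbl2 in MRL with all libraries and Cdkn1c alone without that library.

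Cdkn1c, a CIP/KIP inhibitor that restrains growth in the embryo and is expressed mainly from the maternal allele, had 15.1, 14.7, 16.5 and 11.4 CPM in uninjured MRL replicates 1 to 4, and 6.39, 2.41, 5.29 and 5.07 CPM in BI-270, BI-272, BI-274, then BI-275. Every injured MRL library was lower than every uninjured one. Cdkn1c fell by 1.58 on the log2 scale (SE 0.36, adjusted p = 0.0211, edgeR), and without the library labelled replicate 4 the log2 fold change was -1.67 (SE 0.38, adjusted p = 0.0319). With 1 library left out at a time, the call was lost in 3 of 8 fits, those without uninjured replicate 1, 2 or 3, with adjusted p of 0.0540 to 0.0601.

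In C57 tendon, Cdkn1c had 16.3, 17.1, 16.5 and 8.10 CPM in the uninjured replicates and 18.6, 16.9, 8.11 and 21.1 CPM in BI-181, BI-183, BI-184, then BI-185. The groups overlapped, and the low values were those of BI-184 and of the library labelled replicate 4. The log2 fold change was 0.11 (95% interval -0.73 to 0.96, adjusted p = 0.925, edgeR), and -0.09 (-0.82 to 0.65) without that library. Between injured tendons Cdkn1c was lower in MRL than in C57, with a log2 fold change of -1.78 (SE 0.41, adjusted p = 0.0444, edgeR), the 1 member called of 9 against 3.43% of the 14626 genes, and the only one whose groups did not overlap, against 16% of genes. All injured MRL libraries were deeper than the injured C57 ones, at 12883569 to 16579900 counts. Strain cannot be told apart here from depth or from any difference in processing between the strains. When single libraries were left out, edgeR made this call in 1 of 8 fits, the one without BI-184 (adjusted p = 0.0330), and gave adjusted p of 0.0649 to 0.126 in the other 7.

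The difference of the injury responses of Cdkn1c, MRL minus C57, was -1.74 on the log2 scale (SE 0.51) and did not pass the interaction test (adjusted p = 0.333, edgeR; -1.64 and 0.296 without both doubted libraries). edgeR's interaction test called no gene with all libraries, 0% of 15947, and no gene without the doubted libraries, 0% of 16391, with 1939 and 1735 genes at an unadjusted p under 0.05. For 2 members the unadjusted p was under 0.05, Cdkn1c and Cdkn2b with all libraries and Cdkn1a and Cdkn1c without the doubted ones. DESeq2 called 198 genes for the interaction, 1.16% of 17114, and 1 of the members, Cdkn1c (adjusted p = 0.0484).

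Endothelial RNA differed between the same groups. The 4 endothelial markers Pecam1, Cdh5, Kdr and Tie1 summed to 71.5 to 105 CPM in injured C57 and 0.0841 to 15.8 CPM in injured MRL libraries, and their part in the Cdkn1c difference was not tested. All 4 markers had a count in each injured C57 library, and in BI-270 only 1 of them did. Of the 6 leukocyte markers, Csf1r, a macrophage receptor, did not overlap between injured C57 (214 to 451 CPM) and injured MRL libraries (93.7 to 184 CPM), the other 5 overlapped, and their part was likewise not tested. In uninjured libraries the endothelial markers summed to 0 to 42.5 CPM in MRL, with no count of any of them in replicate 1, and to 13.95 to 58.2 CPM in C57.

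**Figure D3:**
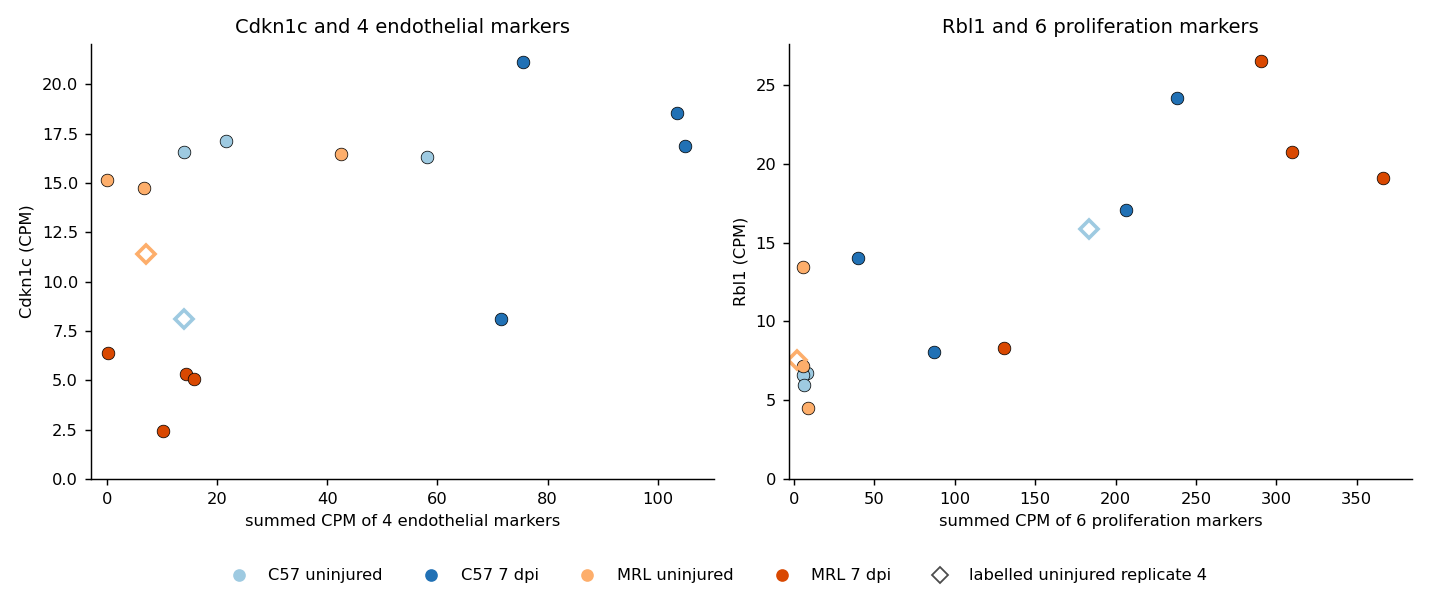
Left, Cdkn1c (vertical axis, CPM) against the summed CPM of 4 endothelial markers, and right, Rbl1 against the summed CPM of 6 proliferation markers, 1 point a library and open diamonds for the libraries labelled uninjured replicate 4. The 4 injured MRL libraries had the lowest Cdkn1c, 2.41 to 6.39 CPM, and 0.0841 to 15.8 CPM of the endothelial markers, and the 5 libraries with the most Rbl1, at 17.0 to 26.5 CPM, had 206 to 366 CPM of the proliferation markers.

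Cdkn1b, whose product p27 binds cyclin E and CDK2 in resting cells, had 27.9, 27.4, 20.1 and 31.6 CPM in uninjured MRL replicates 1 to 4 and 17.7, 7.08, 14.6 and 9.31 CPM in the injured MRL libraries in the order above. The MRL groups did not overlap. It fell by 1.13 on the log2 scale (SE 0.31, adjusted p = 0.0434, edgeR), and without the library labelled replicate 4 the log2 fold change was -1.03 (SE 0.34) with an adjusted p of 0.104. The call was lost in 7 of 8 fits that left out 1 library and was kept without BI-270. C57 values were 22.0, 27.6, 21.03 and 12.8 CPM before injury and 15.4, 11.7, 11.2 and 15.8 CPM after it, overlapping through the library labelled replicate 4. The C57 log2 fold change was -0.67 (SE 0.29, adjusted p = 0.325, edgeR) and -0.84 (SE 0.24, adjusted p = 0.0777) without that library, and the difference between the strains' responses was -0.51 (95% interval -1.42 to 0.40), and -0.24 (-1.14 to 0.66) without the doubted libraries.

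Cdkn1a, a p53 target and the most abundant member, showed no call. Its values in injured libraries lay close together, at 196, 192, 250.02 and 216 CPM in C57 and 191, 228, 209 and 185 CPM in MRL. The uninjured values were spread, at 279, 192, 447 and 606 CPM in C57 and 197, 172, 174 and 497 CPM in MRL, with the library labelled replicate 4 highest in both strains. The log2 fold change was -0.88 (SE 0.34, adjusted p = 0.265, edgeR) in C57 and -0.35 (SE 0.32, adjusted p = 0.519) in MRL. Without the doubted libraries it was -0.56 (SE 0.26) and 0.19 (SE 0.14), with adjusted p of 0.255 and 0.465. Cdkn1a made up 78.5% to 96.2% of the summed CIP/KIP RPKM of a library, and Cdkn1c made up 10.8% to 13.2% of it in uninjured MRL replicates 1 to 3, 3.68% in the library labelled replicate 4 and 1.76% to 5.16% in the injured MRL libraries, so that the groups overlapped through that library.

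Of the INK4 inhibitors, Cdkn2d was higher in injured MRL tendon but under the threshold on fold change. It had 29.4, 32.9, 37.9 and 34.8 CPM in the uninjured and 64.2, 64.3, 43.7 and 83.3 CPM in the injured MRL libraries, and the groups did not overlap. The log2 fold change was 0.93 (SE 0.21, adjusted p = 0.0191, edgeR), and 0.95 (SE 0.23, adjusted p = 0.0376) without the library labelled replicate 4. By the adjusted p alone, 11.1% of genes passed in MRL. Without BI-274 the log2 fold change of Cdkn2d was 1.07 (adjusted p = 0.00706, edgeR), past both thresholds, whereas without uninjured replicate 1 or 2 the adjusted p was 0.0628 or 0.0540. The C57 values were 32.7, 44.6, 33.2 and 48.3 CPM before and 49.3, 56.3, 62.4 and 38.1 CPM after injury, and the C57 log2 fold change was 0.33 (SE 0.22, adjusted p = 0.519, edgeR), or 0.44 (SE 0.21, adjusted p = 0.276) without replicate 4.

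Cdkn2c, an INK4 inhibitor known from muscle and lymphoid differentiation, had 23.6, 34.8, 30.6 and 19.8 CPM in uninjured and 61.1, 51.9, 27.7 and 50.2 CPM in injured MRL tendon. BI-274 overlapped the uninjured range, and the log2 fold change of 0.82 (SE 0.27) did not pass the test (adjusted p = 0.0786, edgeR; 0.158 without the library labelled replicate 4). Without BI-274 it was 1.01 and was called (adjusted p = 0.0235, edgeR). In C57 it had 15.3, 19.98 and 15.0 CPM in uninjured replicates 1 to 3, 66.7 CPM in the library labelled replicate 4, and 28.6, 36.9, 33.9 and 24.4 CPM in the injured libraries. All injured C57 libraries were above the 3 uninjured ones and below the fourth. The log2 fold change was 0.03 (SE 0.49, adjusted p = 0.984, edgeR) with that library and 0.84 (SE 0.22, adjusted p = 0.0601) without it.

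Cdkn2b, a target of TGF-beta, was low in all libraries but 1. It had 4.17, 3.05 and 3.25 CPM in uninjured C57 replicates 1 to 3, 69.3 CPM in the library labelled C57 uninjured replicate 4, and 1.68, 2.29, 2.34 and 2.42 CPM in the injured C57 libraries. MRL values were 1.79, 1.804, 1.31 and 1.21 CPM before and 1.60, 3.40, 1.72 and 4.24 CPM after injury. The C57 log2 fold change was -3.25 (SE 1.09, adjusted p = 0.214, edgeR) and -0.72 (SE 0.47, adjusted p = 0.427) without the library labelled replicate 4, and in MRL it was 0.84 (SE 0.62, adjusted p = 0.407), or 0.75 (SE 0.66, adjusted p = 0.523) without the doubted library. The interaction of strain and injury was 4.03 with all libraries (SE 1.21, adjusted p = 0.333, edgeR) and 1.42 without the doubted ones (SE 0.77, adjusted p = 0.537). With all C57 libraries Cdkn2b was the only member whose groups did not overlap, lower after injury, against 11.7% of genes. Without replicate 4 there were 5 such members, Cdkn2c and Rbl1 higher and Cdkn1b, Cdkn2b and Rbl2 lower, against 22% of genes.

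Cdkn2a was too low to be tested. It had 4, 9, 1 and 0 counts in uninjured C57, 8, 0, 3 and 0 counts in injured C57, no count in any uninjured MRL library and 11, 6, 0 and 0 counts in injured MRL tendon. With a floor of 3 counts, a count of 0 allows up to 0.241 CPM in the uninjured and up to 0.167 CPM in the injured MRL libraries, by counting error only. A difference was not detectable at this depth, and counts per gene do not separate p16Ink4a from p19Arf, which have first exons of their own.

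In the retinoblastoma family, Rbl2 and Rbl1 had values on opposite sides. Rbl2 had 49.2, 59.4, 53.1 and 82.3 CPM in uninjured and 28.2, 32.0, 37.9 and 10.98 CPM in injured MRL libraries, and the groups did not overlap. The highest was the library labelled replicate 4 and the lowest BI-275. Rbl2 fell by 1.16 on the log2 scale (SE 0.33, adjusted p = 0.0498, edgeR), and without the library labelled replicate 4 the log2 fold change was -0.96 (SE 0.36, adjusted p = 0.134). The call was kept without BI-274 and lost in the other 7 fits with 1 library left out, 6 of them through the adjusted p (0.0812 to 0.134) and the one without BI-275 through its log2 fold change of -0.89.

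In C57, Rbl2 had 51.7, 59.7, 50.1 and 22.8 CPM before and 30.5, 30.1, 47.0 and 35.7 CPM after injury. The injured libraries lay below uninjured replicates 1 to 3 and above the library labelled replicate 4. The log2 fold change was -0.41 (SE 0.30, adjusted p = 0.561, edgeR), and -0.63 (SE 0.19, adjusted p = 0.0971) without that library. The difference between the strains' responses of Rbl2 was -0.80 (95% interval -1.81 to 0.22) with all libraries and -0.39 (-1.31 to 0.53) without the doubted ones.

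Rbl1, whose start region printed above holds the E2F sequence, had 13.5, 4.47, 7.17 and 7.56 CPM in uninjured and 20.7, 26.5, 8.29 and 19.1 CPM in injured MRL libraries. BI-274, the injured MRL library with the lowest sum of proliferation markers at 131 CPM, overlapped the uninjured range. The log2 fold change was 1.20 (SE 0.42, adjusted p = 0.0957, edgeR), or 1.17 (SE 0.48, adjusted p = 0.166) without the library labelled replicate 4, and DESeq2 gave an adjusted p of 0.0393. Without BI-274, edgeR called Rbl1 at 1.44 (adjusted p = 0.0389). In C57, Rbl1 had 6.72, 6.62 and 5.95 CPM in uninjured replicates 1 to 3, 15.9 CPM in the library labelled replicate 4, and 8.07, 17.0, 24.2 and 14.0025 CPM in the injured libraries. Its C57 log2 fold change was 0.79 (SE 0.45, adjusted p = 0.437, edgeR) and 1.25 (SE 0.38, adjusted p = 0.0934) without that library.

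Rb1 itself did not pass the test. It had 13.7, 17.1, 15.6 and 20.01 CPM in uninjured C57, 21.7, 17.0, 37.6 and 14.1 CPM in injured C57, 20.4, 17.7, 18.6 and 29.5 CPM in uninjured MRL and 21.7, 15.8, 18.4 and 29.4 CPM in injured MRL libraries, with overlap between all groups. The MRL log2 fold change was -0.01 (95% interval -0.60 to 0.58, adjusted p = 0.993, edgeR) and the C57 one 0.40 (-0.36 to 1.15, adjusted p = 0.612). Without the doubted libraries these were 0.19 (-0.39 to 0.77) and 0.50 (-0.27 to 1.28). Per length, Rbl2 made up 53.6% to 68.1% of the family's summed RPKM in uninjured MRL and 64.9% to 66.8% in uninjured C57 replicates 1 to 3. Its share was 15.3% to 52.98% in injured MRL and 37.6% to 50.2% in injured C57 libraries, and 33.6% in the library labelled C57 uninjured replicate 4. The share of Rbl1 was 6.47% to 18.5% in uninjured MRL, 14.6% to 39.2% in injured MRL, 9.31% to 10.95% in uninjured C57 replicates 1 to 3, 15.0% to 29.5% in injured C57 libraries and 29.4% in the uninjured C57 library labelled replicate 4.

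**Figure D4:**
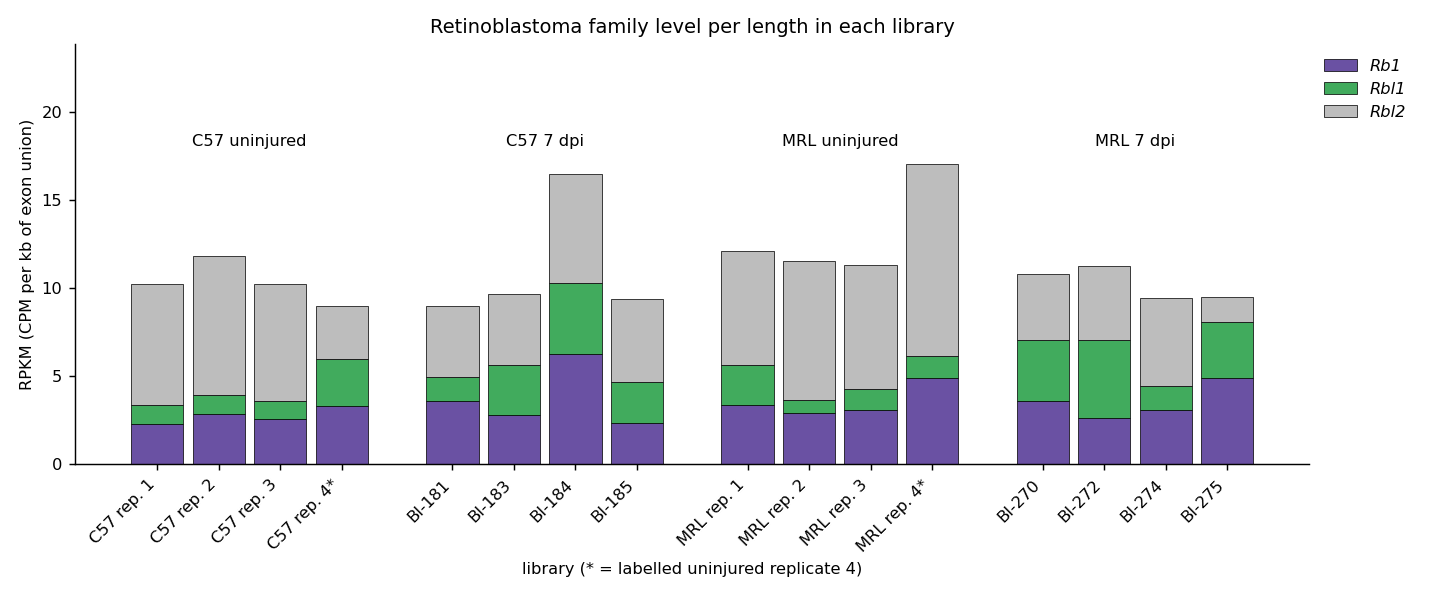
Level per length (RPKM, stacked from 0) of Rb1, Rbl1 and Rbl2 in each of the 16 libraries, grouped by strain and injury, with stars for the libraries labelled uninjured replicate 4. Rbl2 was the largest segment in all uninjured libraries other than the one labelled C57 replicate 4, where Rb1 was, and in 3 of the 4 injured MRL libraries Rbl1 was above 32% of the stack.

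The strains were also compared before injury. edgeR called no gene between uninjured MRL and uninjured C57 tendon with all libraries, 0% of 14055, with 1106 genes at an unadjusted p under 0.05, and 497 genes without the doubted libraries, 3.48% of those tested. No member was called in either fit. With all libraries 1 member had an unadjusted p under 0.05, Cdkn2b, whose log2 fold change was -3.74 (SE 1.12, adjusted p = 0.621, edgeR), and its groups did not overlap, against 5.04% of genes. Without the doubted libraries it was -1.10 (SE 0.62, adjusted p = 0.398, edgeR). In that fit Cdkn2c was at 0.81 (SE 0.23, adjusted p = 0.0803, edgeR) and Cdkn1a at -0.77 (SE 0.25, adjusted p = 0.122), against -0.14 and -0.58 with all libraries, and the groups of 3 members did not overlap, Cdkn2c and Rb1 higher and Cdkn2b lower in MRL, against 24.7% of genes. Cdkn1c was not called, with a log2 fold change of -0.12 (95% interval -0.62 to 0.39), or -0.02 (-0.68 to 0.64) with all libraries.

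Between injured tendons the 8 members other than Cdkn1c were not called. Cdkn2c was at 0.60 (SE 0.25, adjusted p = 0.208, edgeR), Rbl2 at -0.41 (95% interval -1.18 to 0.35), Rbl1 at 0.22 (-0.68 to 1.11) and Cdkn1b at -0.17 (-0.93 to 0.58). The difference of Cdkn1a was -0.09 (95% interval -0.45 to 0.26) and that of Rb1 -0.11 (-0.84 to 0.63). The intervals of Rbl1 and Rbl2 still hold a difference of more than 2-fold.

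Genes on which these proteins act, or that act on them, were read from lists of 12 cyclins and CDKs, 10 E2F and DP factors, 7 MuvB genes and partners, 8 ubiquitin ligase genes, 13 S phase genes, 14 genes of p53 and its targets, 7 polycomb genes and 10 regulators of inhibitor transcription. In MRL tendon, 9 of 12 cyclins and CDKs were called higher and none lower, with a median log2 fold change of 3.35 against -0.03 over all genes tested. The share of all genes called was 7.41% in MRL and 6.11% without the library labelled replicate 4, and 1.07% and 5.01% in C57, and the counts of each list are to be read against these shares. Cdk1, the mitotic kinase, rose by 7.29 on the log2 scale (SE 0.60, adjusted p = 0.000785, edgeR), Ccna2 by 5.39 and Ccnb2 by 6.27. Ccnd1, the D-type cyclin that INK4 proteins compete with, was at 1.29 to 10.8 CPM in uninjured and 34.9 to 110 CPM in injured MRL libraries, and Cdk6 at 1.299 to 5.44 CPM and 16.9 to 46.2 CPM, with log2 fold changes of 3.57 and 3.14, both called. Without the library labelled MRL uninjured replicate 4, 9 of 12 were called again, all higher.

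Of 10 genes for E2F factors and their DP partners, 4 were called higher in MRL, and 3 without replicate 4. E2f1 rose by 1.85 on the log2 scale (SE 0.25, adjusted p = 0.00231, edgeR) and Tfdp1 by 1.02. The atypical repressors E2f7 and E2f8 had no count in any uninjured MRL library and 3.79 to 6.58 CPM and 2.07 to 7.11 CPM in the injured ones, at least 22.9-fold and 20.1-fold higher against a floor of 3 counts per library. The median of the list was 1.43, also with these genes at their bounds. E2f4, which pairs with p130 and p107, and the MuvB core genes Lin9, Lin37, Lin52, Lin54 and Rbbp4 were not called, whereas 2 of 7 genes of that list were, Foxm1 (log2 fold change 3.63, SE 0.72, adjusted p = 0.0121, edgeR) and Mybl2 (2.48, SE 0.70, adjusted p = 0.0465), and Foxm1 alone without replicate 4.

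Of 13 S phase genes known as E2F targets, 8 were called higher in MRL and 6 without replicate 4. Among the 8 were Rrm2 (log2 fold change 4.37, SE 0.49), Mcm5 (2.74, SE 0.35) and Mcm2 (2.00, SE 0.30), which are not ranked by fold change. Of 8 ubiquitin ligase genes that turn over CIP/KIP proteins, 2 were called, in both fits. These were Dtl, a receptor through which CUL4 ligases take up p21, at 5.54 (SE 1.02), and Cks1b, the cofactor for p27, at 1.75 (SE 0.36). Skp2, which recognises p27, was not called, at 0.804 to 7.41 CPM in uninjured and 7.90 to 12.7 CPM in injured MRL libraries. None of 14 genes of p53 and its targets was called in MRL (median 0.21) or in C57 (median 0.01).

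Among 7 polycomb genes that repress the Cdkn2a and Cdkn2b locus, Ezh2 was called in MRL, at a log2 fold change of 1.44 (SE 0.33, adjusted p = 0.0217, edgeR), also without replicate 4, and the median of the list was -0.15. Cbx7 had 27.1 to 39.3 CPM in uninjured and 0.111 to 15.9 CPM in injured MRL libraries and was not called (log2 fold change -2.04, SE 0.80, adjusted p = 0.129, edgeR). Among 10 regulators of CDK inhibitor transcription, Tgfb1 was called higher, at 1.07 (SE 0.25), and Klf4 lower, at -1.35 (SE 0.32). Without replicate 4 the calls were Tgfb1 and Myc, both higher. In C57 the lists gave 1 call with all libraries, Ccnd2 at 1.16 (SE 0.22, adjusted p = 0.0467, edgeR). Without the library labelled C57 uninjured replicate 4 there were 6 calls among the cyclins and CDKs, 3 among the E2F and DP genes (E2f1, E2f2 and E2f8) and 1 among the S phase genes (Rrm2), all higher, and none in the other lists. The median of the cyclins and CDKs in C57 was 1.28 with and 2.12 without that library.

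**Figure D5:**
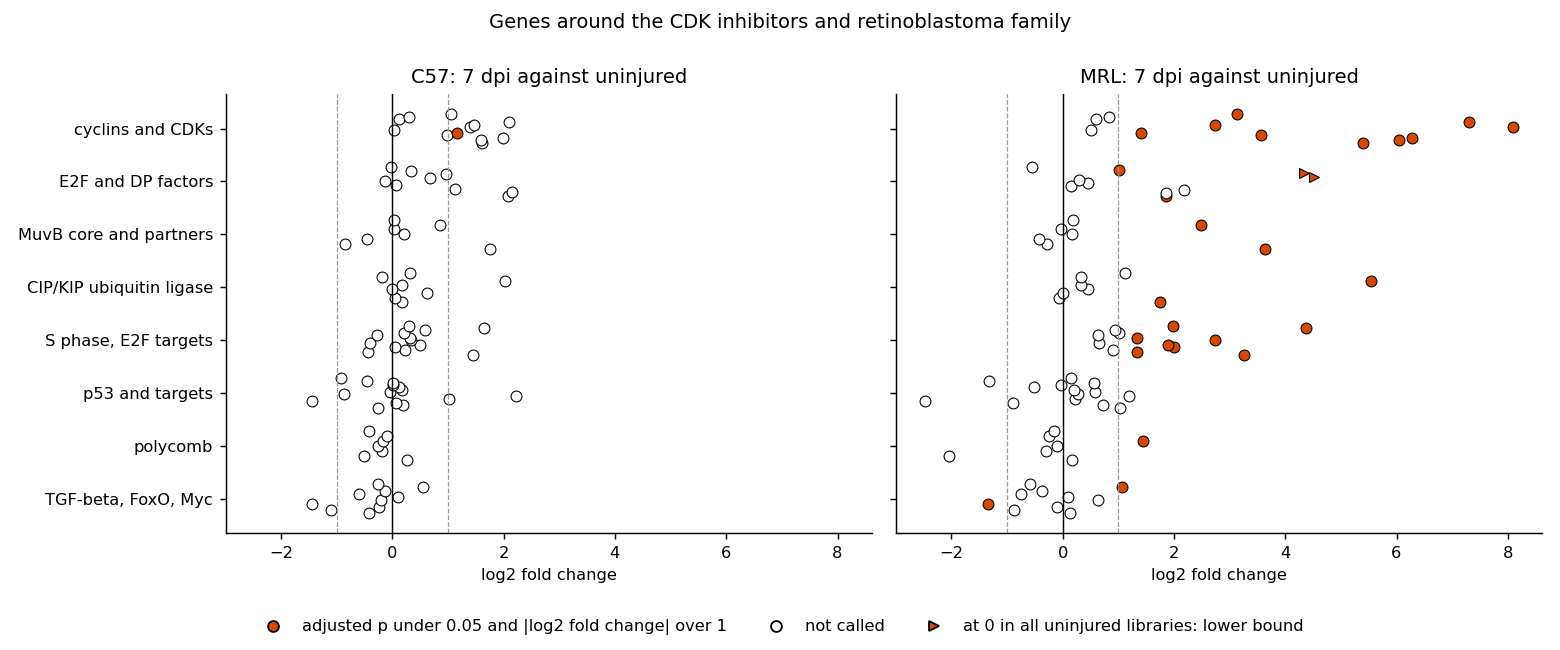
Log2 fold change from uninjured to 7 dpi (horizontal axis, the same in both panels) of each tested gene of the 8 lists in C57 (left) and MRL tendon (right), all libraries. Filled points are calls and triangles lower bounds for genes at 0 in all uninjured libraries; MRL holds 9 filled cyclin and CDK points and C57 the single point of Ccnd2.

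For each tested member, the 3 genes with the most similar log2 CPM over the 16 libraries were taken as a description of its pattern. Pearson's r was taken over libraries that differ in strain, injury and depth. It was 0.91, 0.90 and 0.88 between Cdkn1c and Gigyf1, Cirbp and Ltbp4, and 0.93 each between Cdkn1b and Maml2, Zfp385c and Gm43923. For Rbl2 it was 0.95 each with Mturn, Prkd2 and Ncoa3, and for Rbl1 0.92, 0.89 and 0.87 with Fanca, Dscc1 and Kif20b. Cdkn2d was most like H2afz (0.93), Dck (0.93) and Cdc42 (0.92), and Cdkn2c most like G3bp1 (0.92), Rcn1 (0.91) and Arl6ip1 (0.89). The values were lower for Cdkn1a, with Rc3h1 (0.85), Lgalsl (0.84) and Kdsr (0.84), and for Rb1, with Ncapd3 (0.78), Larp4 (0.75) and Abhd10 (0.74). Cdkn2b was most like Ctnnbip1 (0.94), Cnot6l (0.94) and Gltp (0.93). Over the 14 libraries left without the doubted ones, none of these 3 remained for Cdkn2b, Cdkn2d, Cdkn1a or Rb1, whereas Gigyf1 and Cirbp remained for Cdkn1c, Zfp385c and Gm43923 for Cdkn1b, Mturn for Rbl2, Fanca for Rbl1 and G3bp1 for Cdkn2c.

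Among the members themselves, Rbl2 correlated with Cdkn1b (r = 0.74 over 16 and 0.68 over 14 libraries) and Cdkn1c with Cdkn1b (0.66 and 0.70), and Rbl1 correlated with Cdkn2d (0.75 and 0.74) and Cdkn2c with Cdkn2d (0.73 and 0.77). Between these groups the values were negative, such as -0.81 in both cases for Cdkn1b and Cdkn2d and -0.76 and -0.77 for Rbl2 and Cdkn2d. These values contain the differences between the groups and are no further evidence of them.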

How the data were processed

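Bulk RNA-seq was performed on 16 single flexor tendons, as single-end reads of 100 nt. Gene counts were deposited as whole numbers per gene and library. Per the labels and the methods, the authors trimmed reads with Trimmomatic v0.36 and aligned them to GRCm38 with STAR 2.5.2b, and the processing notes also name Subread 1.5.0p3 with featureCounts and DESeq2 1.14.1. The annotation and strand setting used for counting are not given in the sources used here. Labels and methods name different library kits.

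Each column matched 1 library by its label, and 0 columns were left over. Total counts ranged from 12552424 to 23741648, so that a floor of 3 counts corresponds to 0.126 to 0.241 CPM, for counting error only. Counts were filtered (filterByExpr), scaled by TMM and tested with edgeR 4.0.16 in R 4.3.3 (robust quasi-likelihood, Benjamini-Hochberg adjustment over all genes tested), each comparison on its own 8 libraries and the interaction on all 16. The interaction was called by the adjusted p alone, at 0.05. Intervals are 95% intervals of the fit. RPKM used exon unions of GENCODE M21, and correlations log2 CPM with a prior count of 2. DESeq2 1.42.0, other scalings and filters, and fits leaving out each library were alternatives. A replicate is 1 tendon, and p-values measure the spread between these libraries.

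The members, gene lists and tests were chosen with earlier results of these data known, and the thresholds of the strain check and the fits without its 2 libraries after seeing the data. All 10 members are described. From each pathway list at most the 3 genes with the smallest p in each injury comparison were to be named, and Ccnd1, Cdk6, E2f4, Skp2 and the MuvB core were added after their values were seen. The fits were tested on simulated counts with known changes. The simulation gave all genes the same dispersion and held no library of contradicted label or with other tissue. It therefore does not show how the fits behave with such libraries.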

Additional observations from a re-analysis of the deposited data

Results flagged for a closer look

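In 5 of 39 groups of 4 libraries, 1 library lay beyond Dixon's 95% critical value from the others. Chance flags about 1 in 20 groups. All 5 concern the libraries labelled uninjured replicate 4, whose strain label their reads contradict. In uninjured C57, that library had 69.3 CPM of Cdkn2b against 3.05 to 4.17 CPM in the other 3 libraries, 66.7 CPM of Cdkn2c against 15.0 to 19.98 CPM, 15.9 CPM of Rbl1 against 5.95 to 6.72 CPM, and 8.10 CPM of Cdkn1c against 16.3 to 17.1 CPM. It also had 6.85% of its counts on 12 epidermal markers and 183 CPM of 6 proliferation markers, and their part in these values was not tested. In uninjured MRL, the library labelled replicate 4 had 497 CPM of Cdkn1a against 172 to 197 CPM in the others, and its epidermal markers took 0.00531% of its counts.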

How the results depend on the processing

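Of the refitted fold changes of members, 652 stayed on the same side of zero and of the threshold, 27 lost and 5 gained a call, and 33 changed sign. Counts of all genes called moved with the tool. In C57 the 155 genes became 907 with DESeq2, 269 with at least 10 counts in every library, 367 with all 16 libraries in 1 fit and 10 to 750 when 1 library was left out, with 0 members throughout. In MRL the 1057 genes became 1819 with DESeq2 and 689 to 1260 with 1 library left out, with 0 to 5 members called. The 5 were called without BI-274 (Cdkn1c, Rbl2, Cdkn2c, Cdkn2d and Rbl1), and the 0 without uninjured replicates 1, 2 or 3. Rbl2 also lost its call with upper-quartile scaling (adjusted p = 0.0525, edgeR), no filter (0.0570) and all 16 libraries in 1 fit (0.0540). Between injured tendons the 502 genes became 1490 with DESeq2, 227 with all 16 libraries in 1 fit and 231 to 481 with 1 left out, with 0 to 1 members. Between uninjured tendons the 0 genes became 104 with DESeq2, 1 without the filter, 1 with at least 10 counts in every library, 497 without both replicates 4, and 0 to 3 with 1 left out. The 0 interaction genes became 198 with DESeq2, 1 of them a member, and stayed 0 with 1 left out. The cause of these differences was not tested.

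Same-numbered uninjured libraries did not deviate together (r of -0.262 to 0.0155). The deviations were taken from group means that include both replicates 4, whose strain labels are contradicted, so this check cannot exclude pairing. With the replicate block between uninjured strains, 0 genes and 0 members were called, and Cdkn1c (0.0199) and Cdkn2c (0.21) changed sign. Other uninjured sign changes were Cdkn1c without the filter (0.0034) and, without both replicates 4, Cdkn2c (0.81), Rbl1 (0.37) and Rbl2 (-0.0094). The interaction then changed sign for Cdkn2c (-0.20) and Rbl1 (-0.14). With 1 library left out, log2 fold changes ran in C57 from -0.0851 to 0.37 for Cdkn1c and -0.18 to 0.84 for Cdkn2c, and in MRL from -0.52 to 0.19 for Cdkn1a and -0.20 to 0.19 for Rb1. Between injured tendons they ran from -0.14 to 0.0035 for Cdkn1a, -0.35 to 0.0584 for Cdkn1b and -0.28 to 0.24 for Rb1, and between uninjured tendons from -0.21 to 0.0834 for Cdkn1c, -0.35 to 0.69 for Cdkn2c and -0.46 to 0.34 for Rbl1. For the interaction they ran from -0.0718 to 0.96 for Cdkn2c and -0.11 to 0.69 for Rbl1. Cdkn2a, at 0 to 11 counts, is limited by depth.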
